A study of Mus musculus with 22 samples.

Results

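The mitotic cell cycle genes are 34 genes listed by symbol whose products drive entry into mitosis, build the spindle and the kinetochores, separate the chromosomes and divide the cell. Probe sets annotated to exactly 1 of the listed symbols were taken, and each gene was represented by its brightest probe set, judged by the mean of all arrays. This gave 33 of the 34 genes, among 18193 genes named on the array. Ccnb1 was not analysed here. The 33 genes have 73 probe sets, and 22 of the genes have more than 1. The list names genes by what they do, it was drawn up with earlier results of these data known, and the probe set was chosen by its mean level.

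RNA was measured on 22 Mouse Genome 430 2.0 arrays, 14 hybridised with RNA from smooth muscle cells in culture and 8 with RNA pooled from aortas, all from male C57BL/6 mice. The cells were dispersed with enzymes from the suprarenal aorta of TNC-KO mice, which lack tenascin C, a matrix glycoprotein made in injured arteries, so every cell group, controls included, carries the knockout. They grew in serum, and were left unstimulated (3 arrays), given TNF-alpha at 10 ng/mL for 24 h by the design text, while the labels of single arrays differ on the hours (TNF, 3 arrays), grown with exogenous tenascin C at 10 ug/mL (TNC, 4 arrays), or given both (4 arrays). The design text describes 3 independent cultures without and 4 with exogenous TNC. The aortic pools cross the WT or TNC-KO genotype with the suprarenal or infrarenal segment and with no treatment or Ca+AngII, here CaAngII: 0.5 M CaCl2 laid around the infrarenal aorta and angiotensin II infused at 1 ug/min/kg for 1 week. Each pool joined RNA of 8 treated or 5 untreated mice on 1 array, so differences between pools have no replicate and no test.

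Cells pass through mitosis in a fixed order. Cyclin A and cyclin B bind the kinase CDK1 and drive entry, the Aurora and Polo kinases assemble the spindle, and the checkpoint holds the cell until each chromosome is attached. The anaphase promoting complex with Cdc20 then releases the sister chromatids and the cell divides. Transcripts of these genes are scarce in resting cells and accumulate in late S, G2 and M phase, and the DREAM and FOXM1-MuvB protein complexes act on many of them through a promoter motif called the cell cycle homology region, often beside CCAAT boxes. Smooth muscle cells of the adult aortic wall divide rarely and re-enter the cycle in culture and after injury.

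Promoter sequences were looked up because this motif is the sequence feature these genes are best known for. RefSeq promoters of build GRCm38.p6, from 250 bases before to 50 bases after the transcription start, were held for 28 of the 33 measured genes, as 30 promoters. Ccna2, Foxm1, Aurkb, Tpx2 and Kif20a were named only. The 8 stretches show the last 120 bases before the start. They include 5 genes with the motif near the start (Cdc20, Espl1, Kif11, Top2a, Cdk1), 1 with it farther off (Mki67), 1 whose matches lie outside the printed bases (Ccnb2) and 1 with no match (Nuf2). Capitals mark the homology region letters TTTGAA, a variant of them that reads TTCGAA, and the CCAAT box. Each was searched on both strands, so on the printed strand the first can read TTCAAA and a reversed CCAAT box reads ATTGG.
Cdc20 (chr4:118437344-118437463, minus strand): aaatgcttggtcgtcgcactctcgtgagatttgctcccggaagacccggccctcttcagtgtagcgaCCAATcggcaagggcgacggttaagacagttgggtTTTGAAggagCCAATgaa
Mki67 (chr7:135716380-135716499, minus strand): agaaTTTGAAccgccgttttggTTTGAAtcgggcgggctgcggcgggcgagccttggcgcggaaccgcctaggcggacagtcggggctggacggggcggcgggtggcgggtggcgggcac
Cdk1 (chr10:69352913-69353032, minus strand): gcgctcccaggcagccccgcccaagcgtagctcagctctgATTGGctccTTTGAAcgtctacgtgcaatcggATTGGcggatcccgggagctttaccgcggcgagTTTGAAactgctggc
Espl1 (chr15:102296173-102296292, plus strand): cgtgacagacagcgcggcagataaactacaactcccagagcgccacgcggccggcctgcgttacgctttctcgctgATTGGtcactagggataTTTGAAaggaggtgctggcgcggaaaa
Kif11 (chr19:37376262-37376381, plus strand): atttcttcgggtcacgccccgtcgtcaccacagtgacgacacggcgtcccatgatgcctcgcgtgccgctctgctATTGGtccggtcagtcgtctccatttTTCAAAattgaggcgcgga
Top2a (chr11:99024190-99024309, minus strand): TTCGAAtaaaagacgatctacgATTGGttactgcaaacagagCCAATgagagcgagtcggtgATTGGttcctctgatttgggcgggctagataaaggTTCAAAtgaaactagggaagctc
Ccnb2 (chr9:70421555-70421674, minus strand): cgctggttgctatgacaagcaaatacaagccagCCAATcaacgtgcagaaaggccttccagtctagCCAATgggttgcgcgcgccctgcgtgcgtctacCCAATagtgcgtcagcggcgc
Nuf2 (chr1:169531465-169531584, minus strand): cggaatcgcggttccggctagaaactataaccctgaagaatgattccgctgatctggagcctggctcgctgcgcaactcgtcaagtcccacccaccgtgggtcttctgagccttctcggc

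TTTGAA was in 24 of the 30 promoters (80%), from 22 of the 28 genes, against 17.9% of all 32851 promoters of the same length. It was absent from the promoters of Melk, Bub1, Nuf2, Cenpe, Birc5 and Nusap1. The matches gathered at the start site: 22 of the 30 promoters (73.3%) held one within 50 bases on either side, against 4.94% of all promoters. The CCAAT letters were in 23 promoters (76.7%) against 37.4% of all, and both motifs in 21 (70%) against 6.95%. TTCGAA was in 3 promoters (Bub1b, Bub1 and Top2a). The E2F letters TTTCGCGC or TTTGGCGC, searched on both strands, were in 1 promoter, that of Cdk1 (3.33%, against 0.813% of all). Among listed S phase and DNA replication genes, TTTGAA was in 3 of 31 promoters and the E2F letters in 10 (32.3%). Among other listed mitotic genes TTTGAA was in 20 of 40 promoters (50%). A match is a description of the letters and does not show a bound site.

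**Figure D1:**
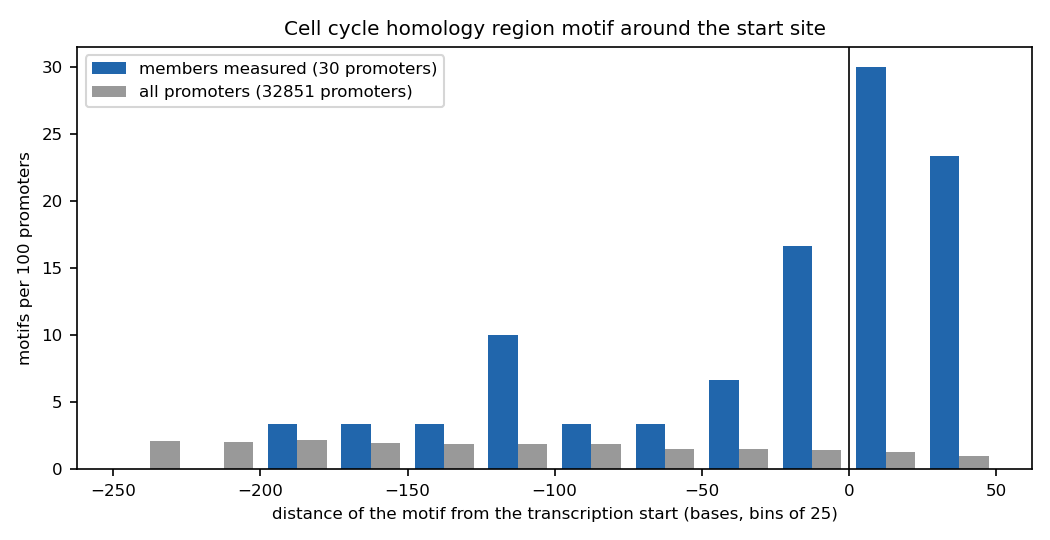
Motifs per 100 promoters (vertical axis) in bins of 25 bases from the transcription start (horizontal axis, negative values upstream), for the 30 promoters of the mitotic genes and for all 32851 promoters. The mitotic genes hold 30 motifs per 100 promoters in the bin just after the start and 23.3 in the next, while all promoters hold 1.31 and 0.986 there.

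On every array the deposited intensities had a mean of 500.0 over the middle 96% of probe sets, and arrays of the same cell treatment correlated at 0.962 to 0.969 in log2 intensity over the genes tested. The knockout is visible in the pools, where Tnc read 1805 to 2699 in the 4 WT pools and 257 to 489 in the 4 TNC-KO pools. Smooth muscle markers of the cultured cells were mixed: Acta2 read 15304 to 23322 and Tagln 7351 to 14268, while Myh11, the myosin of contractile muscle, read 27.9 to 407. Of the 6 endothelial markers, Pecam1 (3097 to 5065), Cdh5 (1629 to 2472) and Emcn (9298 to 14206) were also bright on all 14 cell arrays. Vwf read 624 to 1913, Tek 164 to 272 and Kdr 44.5 to 98.1. Of the 12 macrophage markers Itgam, C1qa, C1qb and C1qc reached at most 83.4, while Cd14 read 93.7 to 1957, Lyz2 352 to 866 and Csf1r 167 to 278. The summed smooth muscle markers read 51300 to 54417 in unstimulated cells, 25333 to 27849 with TNF, 39022 to 41550 with TNC and 26538 to 29754 with both, so they moved with the treatments beside the mitotic genes. The 5 fibroblast markers summed to 8531 to 10211 in unstimulated cells, 22344 to 23393 with TNF, 23560 to 25586 with TNC and 27072 to 29341 with both. The macrophage markers summed to 914 to 1380 and 1056 to 1123 without TNC, unstimulated and with TNF, and to 2132 to 3172 and 2279 to 2427 with it. Cd14 had the widest range of intensity among these 12. Between 3 and 7 of the 12 reached the array's median probe set in unstimulated cells, 4 to 5 with TNF or with TNC, and 5 with both. The part of these markers in the results below was not tested. Fewer dividing cells and less RNA per dividing cell cannot be told apart in these bulk samples.

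By group means, mitotic genes were highest in unstimulated cells, lower with TNF, lower again with TNC and TNF together, and lowest with TNC alone. That order held for 28 of the 33 genes. In 3 more the last 2 places were exchanged, and Tpx2 and Cdk1 had orders of their own. The share of all genes in that order was not counted, and the genes move together between arrays. These counts are thus a description. In the last step the arrays overlapped: the members' mean log2 intensity was 6.67 to 7.08 with TNC and 6.85 to 7.42 with both. The comparison of TNC with unstimulated cells gave the widest shift: 29 of 33 genes fell, none rose by the limma test, and all 33 log2 changes were below 0, with a median of -1.16. Over all 15534 genes tested, 15.7% fell and 16.1% rose (limma, Benjamini-Hochberg adjusted p under 0.05), and the median was -0.03. The fall was at least 2-fold in 23 genes. Shares of all genes below 0 and at least 2-fold lower are not given here. The 4 TNC arrays lay below all 3 unstimulated arrays in 30 genes, against 20.9% of all genes (19.8% lay above). Cdk1, Foxm1, Bub1b and Spag5 did not pass the test. Leaving out each array in turn gave 27 to 30 genes. At an unadjusted p under 0.05, 32 of the 33 were lower and none higher. The share of all genes at that unadjusted threshold was not counted, for this or the later comparisons.

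**Figure D2:**
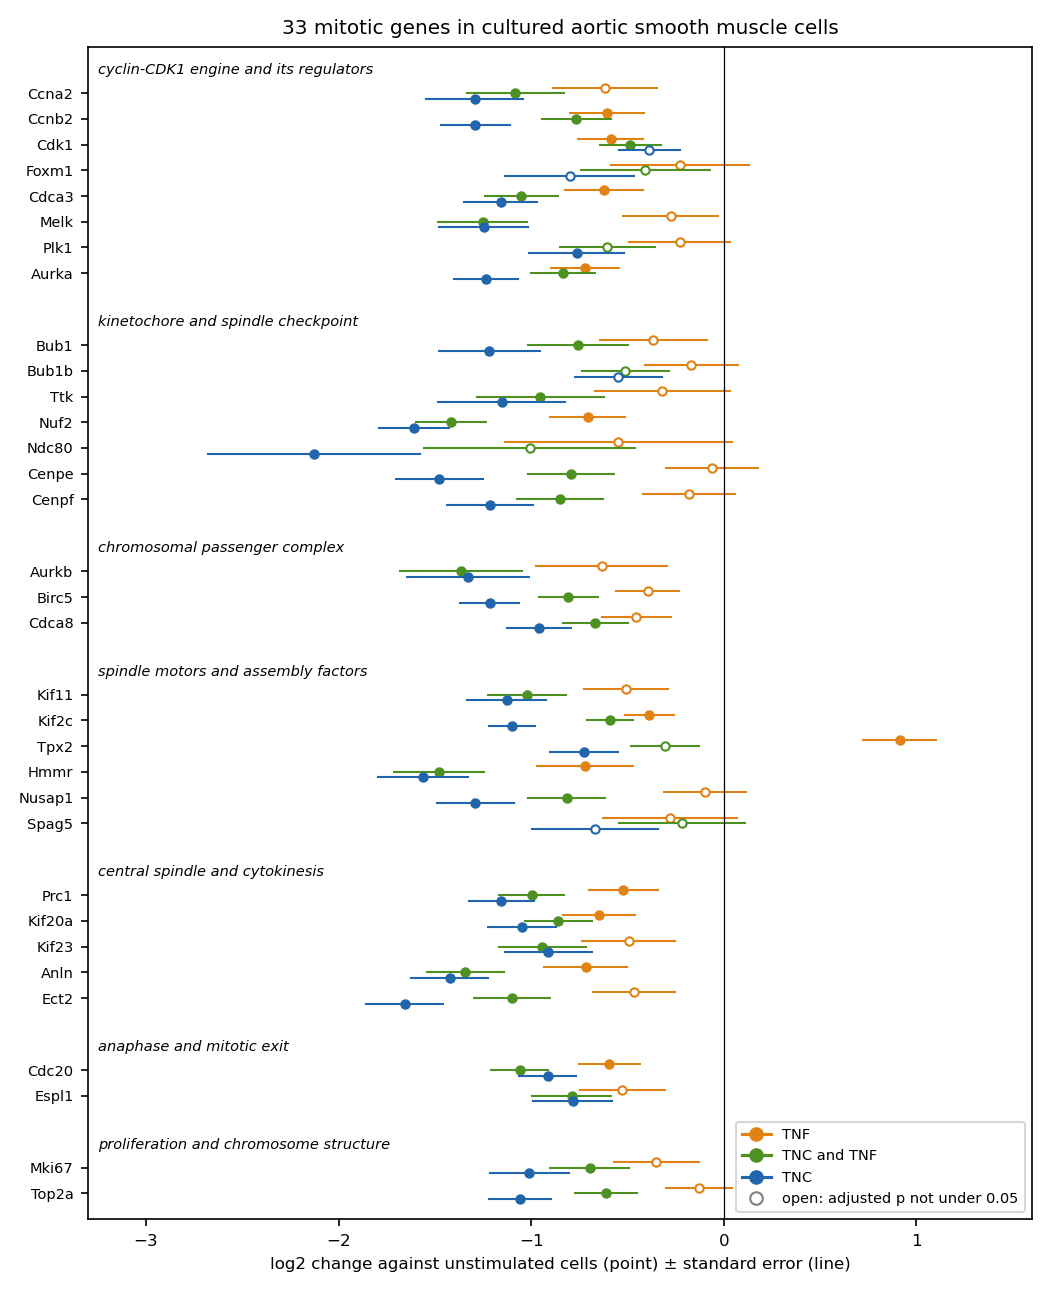
Log2 change against unstimulated cells (horizontal axis) with its standard error for the 33 mitotic genes, grouped by role, after TNF, after TNC and after both. The TNC points lie below 0 for all 33 genes, down to -2.13 for Ndc80, and Tpx2 after TNF at 0.91 is the one filled point above 0.

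Among the cyclins, kinases and other regulators of entry into mitosis, 6 of 8 fell with TNC (median -1.20). Ccna2, cyclin A2, read 703, 421 and 569 in unstimulated cells, 343, 361 and 377 with TNF, 175, 258, 226 and 252 with TNC, and 327, 160.1, 324 and 273 with both. Its TNC arrays lay below every TNF and every unstimulated array, and the fall with TNC was -1.29 (log2, SE 0.25, adjusted p = 0.00231). Ccnb2, cyclin B2, read 521, 297 and 416 in unstimulated cells, 274, 236 and 282 with TNF, 164, 143, 186 and 165 with TNC, and 273, 199, 264 and 215 with both. All 4 TNC arrays were the lowest of the 14, and the TNC change was -1.29 (SE 0.18, adjusted p = 0.00023). Cdk1, the kinase both cyclins bind, behaved differently: it read 1084, 720.2 and 914 in unstimulated cells, 637, 541 and 609 with TNF, and 811, 559.9, 658 and 731 with TNC. Its TNC arrays overlapped the unstimulated ones (log2 change -0.39, adjusted p = 0.0861), and its lowest group was TNF, where the fall of -0.59 passed (SE 0.17, adjusted p = 0.0181). Aurka, the kinase of the spindle poles, fell by 1.24 with TNC (SE 0.17, adjusted p = 0.000183), Melk by 1.25 and Cdca3 by 1.16. Plk1, the Polo kinase, fell by 0.76 with TNC (adjusted p = 0.0352), a call that ended without the unstimulated array 1 (-0.49, adjusted p = 0.153). Foxm1, a transcription factor for these genes, read 117, 117 and 106 in unstimulated cells and 64, 40.8, 97.9 and 69.1 with TNC. Its groups did not overlap but its change of -0.80 missed the threshold (adjusted p = 0.0931).

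Of the 7 kinetochore and checkpoint genes 6 fell with TNC (median -1.22), among them the gene with the widest change, Ndc80. Ndc80 and Nuf2 encode partners in the complex that grips the microtubule ends. Nuf2 read 487, 275 and 364 in unstimulated cells, 229, 247 and 198 with TNF, 121, 94.6, 135 and 133 with TNC, and 149, 119, 142 and 138 with both. Both TNC groups lay below every array without TNC, and the TNC change was -1.61 (SE 0.18, adjusted p = 5.28e-05). Ndc80 read 139, 120.3 and 162 in unstimulated cells against 45, 9.17, 45.9 and 54.7 with TNC, a change of -2.13 (SE 0.55, adjusted p = 0.0119). The widest of the member changes thus leaned on TNC array 2, and without that array it was -1.53 (adjusted p = 0.00465). Cenpe, a kinetochore motor, read 175, 119 and 152 in unstimulated cells, 161, 131 and 133 with TNF, and 70.2, 33, 58.4 and 57.7 with TNC. TNF left its arrays overlapping, and TNC lowered it by 1.48 (SE 0.22, adjusted p = 0.000445). Cenpf, a kinetochore protein of the same phase, fell by 1.21 and the checkpoint kinases Bub1 and Ttk by 1.22 and 1.15. Bub1b, a checkpoint protein that holds back Cdc20, changed by -0.55 (adjusted p = 0.088).

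The 3 measured genes of the chromosomal passenger complex, which corrects faulty attachments and then moves to the division plane, all fell with TNC. Birc5, known as survivin, read 375, 257 and 369 in unstimulated cells, 228, 279 and 245 with TNF, 163, 122, 129 and 157 with TNC, and 193, 164, 206 and 192 with both. The TNC arrays formed the lowest group without overlap, with a change of -1.21 (SE 0.15, adjusted p = 0.000111). Cdca8, borealin, fell by 0.96 (SE 0.17, adjusted p = 0.00118). Aurkb, the kinase of the complex, fell by 1.33 with a wider error (SE 0.32, adjusted p = 0.00778).

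Of the 6 spindle motors and assembly factors, 5 fell with TNC. Kif2c, a kinesin that takes microtubule ends apart, had the narrowest spread within groups of the 33 genes: 263, 187 and 227 in unstimulated cells, 169, 175 and 169 with TNF, 104, 103, 102 and 108 with TNC, and 165, 123, 166 and 144 with both. Its fall of 1.10 with TNC (SE 0.12) had the lowest adjusted p of the 33 genes, 3.67e-05. Kif11, the motor that pushes the poles apart, fell by 1.13, Hmmr by 1.56 and Nusap1, a microtubule bundling protein, by 1.29. Spag5 read 26.7 to 78.6 over the 14 arrays and passed no comparison in cells.

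Tpx2, which activates Aurka on the spindle, was the 1 gene that rose with TNF. It read 395, 228 and 302 in unstimulated cells, 512, 608 and 584 with TNF, 148, 208, 177 and 201 with TNC, and 226, 216, 282 and 256 with both. Every TNF array was above every other array, while the TNC arrays were below all unstimulated ones. The rise with TNF was 0.91 (SE 0.19, adjusted p = 0.00281) and the fall with TNC 0.72 (SE 0.18, adjusted p = 0.00897). The call with TNF held without any 1 array, and ended when the probe sets of each gene were averaged (0.46, adjusted p = 0.0504). Over the other 3 probe sets of Tpx2 the TNF changes were 0.46, -0.03 and 0.52, and the last passed, with an adjusted p of 0.0474 over probe sets. All 3 fell with TNC, by 0.86, 0.77 and 0.73.

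The 5 genes of the central spindle and of cytokinesis all fell with TNC. Ect2, which activates RhoA at the division plane, read 432, 324 and 394 in unstimulated cells, 287, 269.9 and 270.1 with TNF, 89.1, 106, 162 and 139 with TNC, and 175, 169, 226 and 149 with both. No TNC array reached a TNF or unstimulated array, and the change was -1.66 (SE 0.20, adjusted p = 8.15e-05). Anln, the anillin of the contractile ring, read 1348, 806 and 907 in unstimulated cells, 677, 562 and 583 with TNF, 362, 323, 417 and 389 with TNC, and 426, 289, 501 and 385 with both. It fell in steps, by 0.72 with TNF (adjusted p = 0.0222) and by 1.42 with TNC (SE 0.20, adjusted p = 0.000261). Prc1, which cross-links the midzone microtubules, fell by 1.16 with TNC, and its kinesin partners Kif20a and Kif23 by 1.05 and 0.91.

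At the exit from mitosis, Cdc20, the activator of the anaphase promoting complex, read 1209.7, 809 and 949 in unstimulated cells, 655, 632 and 652 with TNF, 513, 483, 558 and 520.3 with TNC, and 507, 375, 569 and 444 with both. The 3 treated groups all lay below the unstimulated arrays. Its fall was 0.59 with TNF (SE 0.16, adjusted p = 0.0121) and 0.91 with TNC (SE 0.15, adjusted p = 0.000678). Espl1, the separase that cuts cohesin, fell by 0.78 with TNC (adjusted p = 0.0128).

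The histological proliferation marker Mki67 read 625, 375 and 496 in unstimulated cells, 388, 420.0 and 343 with TNF, 243, 190.5, 273 and 273 with TNC, and 371, 235, 349.8 and 269.9 with both. Its TNF arrays overlapped the unstimulated ones (-0.35, adjusted p = 0.256), and its fall with TNC was 1.01 (SE 0.20, adjusted p = 0.00308). Top2a, the topoisomerase that disentangles chromosomes, read 1041, 603 and 803 in unstimulated cells, 742, 723 and 717 with TNF, and 371, 341, 421 and 402 with TNC. It fell by 1.06 with TNC (SE 0.16, adjusted p = 0.000452), while its TNF arrays lay inside the unstimulated range.

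TNF without TNC had a smaller effect on the group. With it 11 of 33 genes fell (Ccnb2, Cdk1, Cdca3, Aurka, Nuf2, Kif2c, Hmmr, Prc1, Kif20a, Anln and Cdc20) and Tpx2 rose, against 20.3% of all genes falling and 14.3% rising. The median was -0.47, against -0.06 over all genes, and no fall reached 2-fold. Unadjusted, 16 genes were lower and 1 higher at a limma p under 0.05. The 3 TNF arrays lay below all unstimulated arrays in 15 genes, where 29.5% of all genes did so. The count of 11 moved with single arrays of either group: it was 2 without unstimulated array 1, 5 without unstimulated array 3, 6 without TNF array 1, 4 without TNF array 2 and 5 without TNF array 3. It was 15 without unstimulated array 2. Centring each array on its median left 4 falls and 1 rise, and over all genes turned 3156 falls and 2214 rises into 1941 and 2620. Cdc20 was the 1 gene whose fall with TNF passed under every alternative run.

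In cells with TNC, TNF lowered none of the 33 genes by the limma test (12.5% of all genes fell). At an unadjusted p under 0.05, none were lower and 10 higher. Ccnb2 (0.53, SE 0.17, adjusted p = 0.0413), Cenpe (0.68, SE 0.21, adjusted p = 0.0361) and Kif2c (0.51, SE 0.11, adjusted p = 0.0063) rose, a share near the 9.60% of all genes that rose. The median of the 33 genes was 0.21 against -0.01 over all genes. The arrays with both agents lay above all TNC arrays in 6 genes, against 10.0% of all genes. Ccnb2 and Cenpe no longer passed without TNC array 4 or without TNC and TNF array 1, 3 or 4, which left counts of 1, 1, 1 and 2. The count was 6 without unstimulated array 2 and 5 without TNC and TNF array 2.

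The TNF effect differed between cells with and without TNC in 8 genes, tested as the interaction term, where 9.81% of all genes passed in that direction and 9.01% in the other. The interaction was above 0 in 32 of the 33 genes, Tpx2 being the exception. The share of all genes above 0 is not given here. Because the members move together between arrays, this count is a description. Each of the 8 passing terms was above 0: Ccnb2 1.13 (SE 0.25, adjusted p = 0.00915), Aurka 1.12 (SE 0.23, adjusted p = 0.00631), Ect2 1.02, Kif2c 0.90, Nuf2 0.90, Kif20a 0.84, Birc5 0.80 and Cdca8 0.75. Aurka is an example. It read 207, 149.8 and 171 in unstimulated cells and 107, 103 and 108 with TNF, a fall of 0.72 (adjusted p = 0.00774). With TNC it read 60.3, 77.9, 85.1 and 75.1, and with both agents 108, 80.2, 124 and 85.1, a change of 0.40 (adjusted p = 0.0867). The arrays with both agents overlapped both the TNF and the TNC arrays. The median interaction over the 33 genes was 0.68, against 0.04 over all genes. Unadjusted, 17 terms were above 0 and none below at a limma p under 0.05. The count of 8 was 3 without unstimulated array 1, unstimulated array 3 or TNF array 3, 4 without TNF array 1, 5 without TNF array 2, TNC array 2 or TNC and TNF arrays 1 or 3, and 12 without TNC and TNF array 2. With the replicate number as a block it was 13.

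Adding TNC to cells under TNF lowered 11 of 33 genes and raised none by the limma test, against 11.9% of all genes falling and 16.3% rising. At an unadjusted p under 0.05, 16 were lower and none higher. The 11 were Melk (-0.98), Nuf2 (-0.71), Cenpe (-0.73), Cenpf (-0.67), Tpx2 (-1.22), Hmmr (-0.76), Nusap1 (-0.72), Anln (-0.62), Ect2 (-0.63), Cdc20 (-0.46) and Top2a (-0.48). The median was -0.46 against 0.00 over all genes, and the arrays with both agents lay below all TNF arrays in 17 genes, against 16.1% of all genes. Melk, a kinase expressed in dividing cells, read 155, 149 and 125 with TNF and 84.2, 71.5, 88.7 and 51.2 with both, without overlap. The count was 3 or 4 without any 1 of the TNF arrays or without TNC and TNF array 2 or 4, and centring the arrays on their medians gave 5. Averaging the probe sets of Cdc20 turned its change to 0.53 (adjusted p = 0.104).

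Against unstimulated cells, TNC and TNF together lowered 27 of 33 genes and raised none (limma), against 22.5% of all genes falling and 20.7% rising. At an unadjusted p under 0.05, 29 were lower and none higher. The median was -0.83 (all genes -0.06) and 10 of the 27 fell at least 2-fold, led by Hmmr (-1.48), Nuf2 (-1.42), Aurkb (-1.36) and Anln (-1.34). The share of all genes falling at least 2-fold is not given here. The groups did not overlap in 27 genes, against 25.3% of all genes. Foxm1, Plk1, Bub1b, Ndc80, Tpx2 and Spag5 did not pass. Set side by side at the doses used, TNC alone was lower than TNF alone in 19 genes and higher in none (limma), against 10.4% of all genes lower and 18.2% higher. At an unadjusted p under 0.05, 24 were lower and none higher. Of the 19 the change was widest for Tpx2 (-1.64, SE 0.18, adjusted p = 4.16e-05) and Cenpe (-1.41), followed by Nusap1 (-1.19) and Ect2 (-1.19). Ndc80, at -1.58, did not pass (adjusted p = 0.0515). The arrays did not overlap in 29 genes, against 14.7% of all genes, and the count of 19 was 12 without TNF array 1. These comparisons share groups of arrays with those above and are not independent of them.

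Centring each array on its median moved the median of all genes from -0.03 to 0.14 for TNC and from -0.06 to 0.15 for both agents. Relative to the median of all genes, which such centring cannot move, the members' median was -1.12 for TNC and -0.78 for both agents. With centring 28 genes still fell with TNC, and over all genes the split went from 2435 falls and 2506 rises to 1246 and 3986.

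Within a treatment the 33 genes moved together from array to array. Unstimulated array 1 had 32 of the 33 genes above their group mean (mean deviation 0.29 on the log2 scale), and unstimulated array 2 had 3 above it (-0.29). With both agents, array 2 had none of the 33 genes above the group mean (-0.34), while array 3 had 30 (0.23). The 3 TNF arrays differed by less, with mean deviations between -0.02 and 0.04. Mean deviations over all genes tested lay between -0.04 and 0.03 on the 14 arrays. The median within-group SD was 0.28 for the members and 0.17 for all genes tested.

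**Figure D3:**
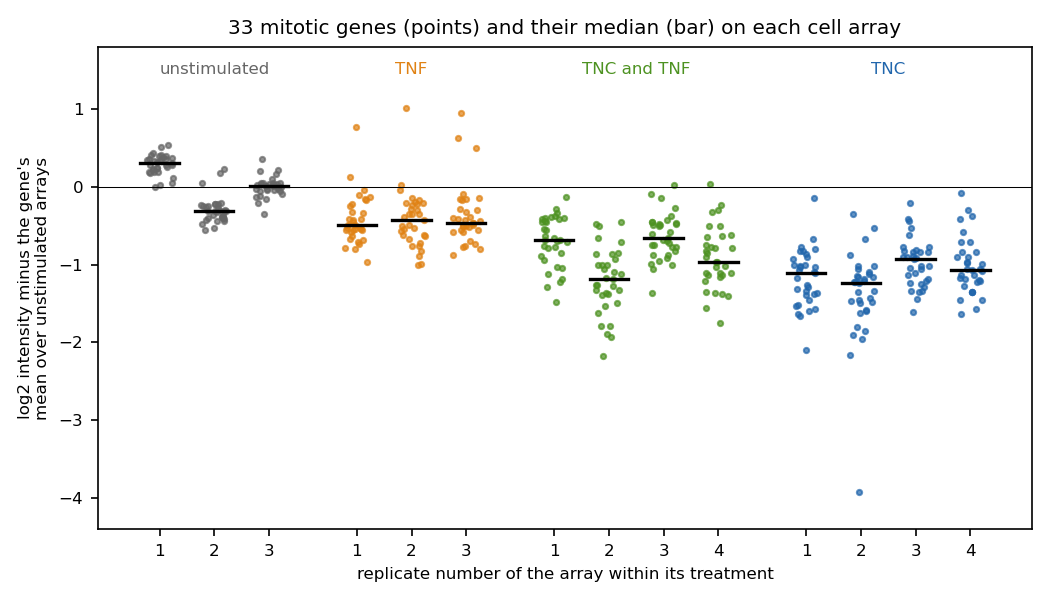
Log2 intensity of each of the 33 mitotic genes minus its mean over the unstimulated arrays (vertical axis), with the median as a bar, on each of the 14 cell arrays (horizontal axis, replicate numbers within each treatment). Arrays of the same treatment differ as a block: 32 of 33 genes lie above their group mean on unstimulated array 1, and none on TNC and TNF array 2.

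The other 40 probe sets of the same genes were looked at as a second reading of the transcripts, and 36 of them passed the filter on dim signals. With TNC 18 of the 36 fell and none rose, where 15.7% of all genes fell and 16.1% rose. With TNF 4 fell and 1 rose, shares below the 20.3% and 14.3% of all genes. With both agents against unstimulated cells 15 fell and none rose, against 22.5% and 20.7%. Under TNF, TNC lowered 8 and raised 1, a dim probe set of Cdc20 (mean 29.9, change 1.93), against 11.9% and 16.3%. These shares are of genes at 1 probe set each, since no share of all probe sets was counted.

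Of 44 other mitotic genes tested, 30 fell with TNC and none rose (median -0.79), where 15.7% of all genes fell and 16.1% rose. Among the 30 were Pbk (-1.38), Ckap2 (-1.11) and the Ndc80 complex genes Spc24 (-1.60) and Spc25 (-1.41). With TNF alone 7 fell and 1 rose, shares no larger than those of all genes (20.3% and 14.3%). Of 31 S phase and DNA replication genes, 16 fell with TNC and 3 rose (median -0.43), and 14 fell and 1 rose with TNF. Mcm6, a subunit of the replicative helicase, read 1386, 1141 and 1377 in unstimulated cells, 1533, 1774 and 1502 with TNF, and 634, 654, 685 and 644 with TNC. It rose by 0.30 with TNF (adjusted p = 0.0412) and fell by 0.99 with TNC (adjusted p = 1.82e-05), as Tpx2 did. Ccne2, cyclin E2, fell with both agents given singly, by 1.65 with TNF and 1.85 with TNC, as did Prim1, a DNA primase subunit (0.86 and 1.12), and Gins2 (0.30 and 0.86).

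Upstream of these genes, Ccnd1, the cyclin D1 that carries growth signals into the cycle, read 5398, 5099 and 5212 in unstimulated cells, 2305, 2298 and 2105 with TNF, and 1304, 1075, 1410.3 and 1411 with TNC. The groups were far apart, with falls of 1.23 with TNF (adjusted p = 0.000158) and 2.02 with TNC (SE 0.16, adjusted p = 3.07e-06). With TNC 15.7% of all genes fell and 16.1% rose. Of the 7 G1 genes 4 fell and 2 rose. Ccnd3 and Ccnd2 fell, by 0.64 and 0.33, and Myc, a growth promoting transcription factor, rose by 1.54 (adjusted p = 7.65e-06). Of 13 CDK inhibitors and p53 targets, 6 rose and 5 fell with TNC. The stress gene Gadd45a rose by 1.35, while the inhibitors Cdkn2b, Cdkn2a and Cdkn2c fell by 0.76, 0.49 and 0.42. Of 15 genes of the E2F, RB and DREAM families 2 fell with TNC, E2f7 (-1.31) and Rbl1 (-0.40), and 2 rose, Tfdp1 (0.19) and E2f3 (0.24), shares near those of all genes. Rbl1, the p107 pocket protein, rose with TNF by 1.16 (adjusted p = 5.51e-05).

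In the aortic pools the mitotic genes were higher after CaAngII in the infrarenal segment of both genotypes, the segment that received CaCl2. The geometric mean of the 33 genes was 63.2 in the untreated and 178 in the CaAngII infrarenal pool of WT mice, and 75.8 and 155 in those of TNC-KO mice. In the suprarenal segment it was 78.2 and 115 in WT mice and 81.5 and 85.9 in TNC-KO mice. The genes are dim in untreated aorta: between 5 and 11 of the 33 lay at or above the array's median probe set, against 13 to 23 after CaAngII. Both infrarenal CaAngII pools were above the other 6 pools in 27 of the 33 genes. Of the 25 members that reached the median probe set in any pool, 22 did so, where 25.2% of all genes passing that filter did, but 7 of the 25 reached it in the infrarenal CaAngII pools alone and were admitted through them. Of the 18 that reached it in another pool, 15 were separated in this way, and the share of all genes on that rule was not counted. The 6 exceptions among the 33 genes were Foxm1, Kif11, Hmmr, Spag5, Kif20a and Anln.

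**Figure D4:**
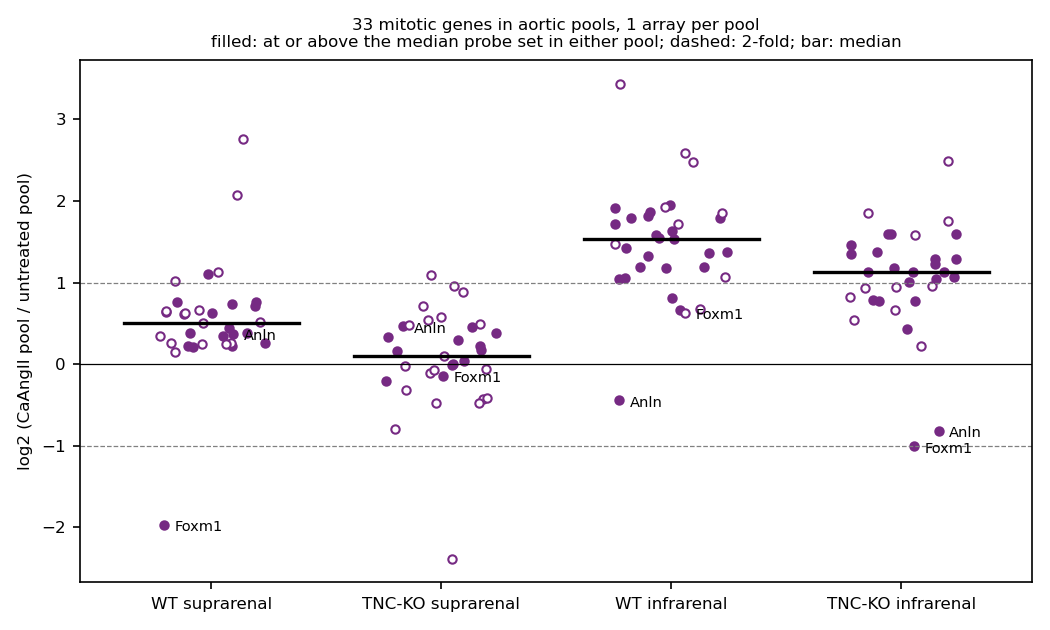
Log2 ratio of the CaAngII pool to the untreated pool (vertical axis) for the 33 mitotic genes in each genotype and segment (horizontal axis), with the median as a bar. The infrarenal medians are 1.54 in WT and 1.13 in TNC-KO, the suprarenal ones 0.51 and 0.10, and Anln lies below 0 in both infrarenal pairs.

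In WT infrarenal aorta 32 of 33 genes were higher after CaAngII (median log2 ratio 1.54). Over all 33 genes, dim ones included, 28 were at least 2-fold higher and none lower. Without the filter the share of all genes was not counted, here or in the other pairs. Among the 23 genes above the filter the counts were 20 and 0, against 10.6% and 7.05% of all genes, but 18 of the 23 passed the filter through the CaAngII pool alone, so these counts are a description. Of the 5 that were above it in the untreated pool, 4 were at least 2-fold higher. No share of all genes was counted on that rule, here or in the other pairs. Mki67 read 182 untreated and 601 after CaAngII (1.72), Top2a 169 and 585 (1.79), and Cdk1 105 and 403 (1.95). Birc5 (1.79), Aurkb (1.82), Tpx2 (1.91), Kif23 (1.86) and Cdc20 (1.59) were in the same range. The widest ratio, 3.44 for Spag5, rests on a dim value of 6.98 in the untreated pool. Anln was the 1 gene on the other side, at 1129 untreated and 830.0 after CaAngII (-0.44), and its second probe set was also lower (-0.71).

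In TNC-KO infrarenal aorta 31 of 33 genes were higher (median 1.13), and 20 of the 33, dim ones included, were at least 2-fold higher. Above the filter the count was 16 of 22, against 11.1% of all genes, and 15 of the 22 passed through the CaAngII pool alone. Of the 7 above it in the untreated pool, 4 were at least 2-fold higher and 1, Foxm1, lower. Mki67 read 168 and 506 (1.59), Top2a 207 and 452 (1.13) and Cdk1 155 and 264 (0.77). Anln read 1260.5 and 714 (-0.82). Foxm1 was at 257 untreated and 128 after CaAngII, 2-fold lower (-1.01), against 6.34% of all genes, and its other probe sets gave log2 ratios of 1.19, 1.10 and -0.52, all from dimmer values, so its direction is not settled. Averaging all probe sets of a gene gave 7 in place of 16 genes, and adding 32 before the logarithm gave 9.

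In the suprarenal segment, which received no CaCl2, the WT pool after CaAngII was above the untreated pool in 32 of 33 genes, but by a median of 0.51. Of 18 genes above the filter 1 was at least 2-fold higher, Kif23 (58.2 and 125), and 1 lower, Foxm1 (183 and 46.7), against 1.22% and 2.39% of all genes. Of the 18, 7 passed the filter through the CaAngII pool alone, Kif23 among them. Of the 11 above it in the untreated pool, none was at least 2-fold higher and 1, Foxm1, was lower. With probe sets averaged, none of 8 genes above the filter was 2-fold apart in WT suprarenal aorta. Mki67 read 191 and 313 there, and Top2a 166 and 278. In TNC-KO suprarenal aorta 18 of 33 genes were higher and 15 lower (median 0.10), none of 13 by 2-fold, against 3.59% of all genes higher and 1.55% lower. Mki67 read 245 and 213, and Top2a 220.1 and 258.

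Between genotypes the mitotic genes above the filter lay within 2-fold of each other, as did most genes on the array, apart from Foxm1. With the probe sets of each gene averaged, no mitotic gene above the filter was 2-fold apart between genotypes. In CaAngII pools the TNC-KO value was below the WT value in 27 genes in the suprarenal segment (median -0.35) and in 25 in the infrarenal segment (median -0.25). None of 25 genes above the filter differed 2-fold in the infrarenal segment, against 0.599% of all genes lower and 0.574% higher. In the suprarenal segment 1 of 18 did, Foxm1 higher at 1.43, against 2.52% of all genes higher and 0.336% lower. In untreated pools the medians were 0.01 suprarenal, where none of 11 genes differed 2-fold (0.583% of all genes higher and 1.28% lower), and 0.16 infrarenal, where 1 of 7 did (Foxm1, 2.14, against 1.03% of all genes higher and 0.671% lower). With 1 array per pool these differences have no error.

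Between segments the untreated infrarenal pools were the lower ones, with medians of -0.28 in WT and -0.23 in TNC-KO. Foxm1 (-1.64) was the 1 gene of 11 past 2-fold in WT, against 7.58% of all genes lower, and none of 10 was in TNC-KO, against 9.78% lower and 3.09% higher. With probe sets averaged, none of 5 genes above the filter was past 2-fold in untreated WT. After CaAngII the infrarenal pools were higher in 32 of 33 genes in each genotype (medians 0.61 and 0.79). Cdk1 (1.22), Aurkb (1.18), Cdc20 (1.09) and Top2a (1.07) were at least 2-fold higher in WT, 4 of 23 genes against 9.51% of all. Kif2c (1.47), Cdk1 (1.46), Ect2 (1.39), Mki67 (1.25) and Cdc20 (1.02) were so in TNC-KO, 5 of 22 genes against 6.79% of all higher and 9.34% lower. In WT the array's median probe set was reached by 23 genes in the infrarenal and 17 in the suprarenal pool, and in TNC-KO by 22 and 13. Some genes thus passed the filter through the infrarenal pool alone, so these counts are a description. For WT the count was 2 after centring each array on its median.

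Marker levels of other cell types also differed between the pools, and not all of them in the direction of the mitotic genes. The summed intensity of 12 macrophage markers, of phagocytes that enter injured arteries, went from 27370 to 86108 in WT and from 22797 to 90188 in TNC-KO infrarenal aorta, with all 12 higher in each genotype. In the suprarenal segment it went from 32147 to 36944 in WT and from 28417 to 44013 in TNC-KO. Smooth muscle markers went from 118514 to 66939 and from 120518 to 76811 in the infrarenal pools, and fibroblast markers from 63719 to 73146 and from 64229 to 85648. The 7 lymphocyte markers went from 3127 to 544 and from 3994 to 679 in the suprarenal pools, and from 896 to 2454 and from 858 to 1627 in the infrarenal ones. Endothelial markers went from 17045 to 10250.5 and from 15035 to 10011 in the infrarenal pools, and neutrophil markers from 3256 to 8135 and from 1027 to 12172. The neutrophil sum of the TNC-KO suprarenal CaAngII pool, at 34455, stood above the other 7 pools. Which cells carry the mitotic transcripts was not measured, and the part of these markers in the result was not tested.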

How the data were processed

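RNA was measured on 22 Affymetrix Mouse Genome 430 2.0 arrays. The authors deposited linear probe set intensity values; the submitters' processing notes name Affymetrix Expression Console, with version and algorithm not given in the sources used here. Every array had the same mean intensity over the middle 96% of probe sets as deposited. Of 45101 probe sets, 34945 named exactly 1 gene (18193 genes), 932 several and 9160 none, and 64 were controls. The brightest probe set of a gene, by its mean over the arrays, stood for it.

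Cell arrays were compared as log2 intensity, with no pseudocount, by limma 3.58.1 (lmFit and eBayes, R 4.3.3) with all 4 treatments in 1 fit and Benjamini-Hochberg adjustment over the 15534 genes at or above the array's 30th percentile in at least 3 arrays. Calls needed an adjusted p under 0.05. The design text calls the cultures independent, and p-values measure the spread between these arrays. Deviations of same-numbered arrays correlated at -0.016 to 0.057 over all genes (19 pairs). Over the members they correlated at -0.30 to 0.48, and at 0.34 to 0.48 in the 4 pairs of TNC with and without TNF. The labels do not say that numbers mark a shared culture, and they were not used to pair samples. Pools, with 1 array each, were compared by log2 ratio with a 2-fold threshold among genes at or above the 50th percentile in either pool, with no test. A gene could thus pass this filter through the pool where it was high. The fit was tested on simulated data: for TNC without TNF, over 15534 genes, 63% of genes changed by a log2 of 1 and 81% of those changed by 2 were called. Of the simulated calls, 5.26% were false. The simulation changed far fewer genes than were called in the data and drew the noise of each gene independently. Its shares therefore do not carry over to the data. Tables were made with Python 3.11.15, pandas 2.3.3 and numpy 2.4.6, and figures with matplotlib 3.10.9. The number of arrays limits the precision.

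The members, the role groups and the pathway and marker lists were chosen with earlier results of these data known. All members could be named, as could Tnc, defining marker genes, and the 4 genes of each pathway list with the lowest p in TNC without TNF. The array label of the TNC group reads either agent in its title, and the treatment label was followed. Alternatives were other normalizations, filters, probe set rules, an added constant, variance settings, a replicate block and leaving out each array.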

Additional observations from a re-analysis of the deposited data

Results flagged for a closer look

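In 3 of 66 groups of 4 arrays, 1 array stood far from the other 3 for its gene, and chance does so in about 1 in 20 groups. Bub1b read 50.3 on TNC array 1 and 77.5 to 80.5 on the others. Ndc80 read 9.17 on TNC array 2 against 45.0 to 54.7, and Cdca8 read 207 on that array against 245 to 246.

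The TNF effect differed between cells with and without TNC in 8 of the 33 mitotic genes by the interaction term of the limma fit. All 8 terms were above 0, where 9.81% of all genes passed in that direction and 9.01% in the other. Leaving out 1 array gave 3 to 12 genes, and 1 of the 8, Ccnb2, passed under every alternative run. The difference, as the log2 TNF effect with TNC minus that without, was 1.13 for Ccnb2, 1.12 for Aurka, 1.02 for Ect2, 0.90 for Nuf2, 0.90 for Kif2c, 0.84 for Kif20a, 0.80 for Birc5 and 0.75 for Cdca8.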

How the results depend on the processing

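The direction and call of 22 of the 29 genes lowered by TNC held in every alternative run, as did 15 of 27 calls for both agents, 6 of 19 for TNC against TNF alone, 2 of 11 for TNC under TNF (Melk and Tpx2), 1 of 12 for TNF alone (Cdc20), 1 of 8 interactions (Ccnb2) and 0 of 3 for TNF with TNC. Leaving out 1 array at a time gave 27 to 30 genes lower with TNC, 22 to 29 with both agents, 12 to 22 for TNC against TNF, 3 to 13 for TNC under TNF, 2 to 15 lower and 1 higher with TNF, 1 to 6 higher for TNF with TNC, and 3 to 12 interactions. With the replicate number as a block, whose pairing of samples is not given by the labels, 30 genes were lower with TNC, 13 with TNF, and 13 interactions were above 0 in place of 8.

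Genes lower with TNF (11) were 6 after quantile normalization, 4 after centring on the array median and 5 with only the groups compared, and the 1 rise was 0 with probe sets averaged. Genes higher for TNF with TNC (3) were 6 after quantile normalization, 5 after centring, 6 with the 50th percentile filter, 0 with probe sets averaged, 5 with log2(value + 32) and 8 with trend and robust variance. Genes lower for TNC under TNF (11) were 5 after centring, 6 with probe sets averaged and 7 with only the groups compared. Interactions (8) were 5 after centring, and the setting with only the groups compared could not differ there because all 4 groups enter it. Averaging probe sets reversed Cdca3 with TNF (0.21, adjusted p = 0.743), Cdc20 for TNC under TNF (0.53, adjusted p = 0.104) and Aurka for TNC against TNF (0.17, adjusted p = 0.861). The cause was not tested.

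In pools, CaAngII against untreated, averaging probe sets gave 10 genes at least 2-fold higher in WT infrarenal (20 before), 7 in TNC-KO infrarenal (16 before) and 0 either way in WT suprarenal aorta. Adding 32 gave 9 in TNC-KO infrarenal and 0 higher in WT suprarenal aorta. The 1 lower gene of TNC-KO infrarenal aorta was 0 under quantile normalization, centring, averaging or adding 32. With no filter on dim genes, 5 were higher in WT suprarenal, and 1 lower and 1 higher in TNC-KO suprarenal aorta. Shares of all genes were not counted without the filter. Between genotypes the unfiltered counts were 2 lower and 3 higher (suprarenal, untreated), 2 lower (suprarenal, CaAngII) and 2 higher (infrarenal, untreated), and averaging gave 0 higher in the last 2. Between segments they were 4 lower and 1 higher (WT untreated), 3 lower and 1 higher (TNC-KO untreated) and 10 higher (TNC-KO CaAngII). Averaging gave 0 lower in untreated WT. The 4 genes higher in WT CaAngII were 2 after centring, 1 with averaging and 2 with 32 added.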
